A study of Danio rerio with 13 samples.

Results

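Complex I subunits encoded by the mitochondrial genome are 7 of the 32520 genes in the count table: mt-nd1 (ENSDARG00000063895), mt-nd2 (ENSDARG00000063899), mt-nd3 (ENSDARG00000063914), mt-nd4l (ENSDARG00000063916), mt-nd4 (ENSDARG00000063917), mt-nd5 (ENSDARG00000063921) and mt-nd6 (ENSDARG00000063922). They were chosen by identifier, as every gene whose name marks it as a mitochondrially encoded subunit of NADH dehydrogenase, and not by any measured value. Earlier results of these data were known when the choice was made. Their RNA was measured in 13 zebrafish ventricles collected 180 days after cryoinjury, a freezing injury that kills part of the ventricular wall. There were 6 mutant ventricles, vegfc(hy-/-);vegfd(-/-), with a hypomorphic allele of vegfc and loss of vegfd, the pair of growth factors that drive lymphatic vessel growth. The 7 control ventricles were vegfc(+/+):vegfd(+/+), and both groups had the same injury. Both alleles are germline alleles, carried by every cell of the fish. The labels do not say which mutant hearts had regenerated or give the age of the fish, and the mutants were analysed as 1 group. The question is whether these transcripts differed between mutant and control ventricles late after injury.

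Complex I is the first enzyme of the respiratory chain: it passes electrons from NADH to ubiquinone and pumps protons across the inner mitochondrial membrane. Most of its subunits are encoded in the nucleus, and the 7 encoded in mitochondria form the core of its membrane arm. In vertebrates the mitochondrial genes are transcribed as long RNAs that cover many genes and are then cut into single messengers. The gene mt-nd6 lies on the opposite strand from the others and is transcribed from the promoter of that strand, and in mammals mt-nd4l and mt-nd4 stay together on 1 messenger. Heart muscle is rich in mitochondria, and mitochondrial messengers are therefore a large part of the RNA of a cardiomyocyte. The RefSeq gene order, read here for neighbours only, places mt-nd4l next to mt-nd4 and mt-nd5 next to mt-nd6.

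Each library came from 12 cryosections of 8 μm of fixed ventricle, depleted of ribosomal RNA. Totals were 3575023 to 12972634 counts in mutants and 2123784 to 4291363 counts in controls. A single gene, ENSDARG00000087732, named rn7sl1 for the RNA of the signal recognition particle, took 94.7% to 96.4% of the counts in mutants and 60.8% to 91.5% in controls. All shares below are therefore counts per 10000 counts outside that gene. The outside counts were 171218 to 596616 in mutants and 256802 to 1070324 in controls, and 3 counts correspond to a share of 0.0503 to 0.175 in mutants and 0.028 to 0.117 in controls. Control 8 stood apart, with 68% of its outside counts on 1 other gene, ENSDARG00000090170 (RAB11FIP4). A library had a count on 2729 to 7398 genes, and 6 of the 13 samples held a count of the median gene among those tested. The targeted genes could not check the labels, as vegfc had 32 counts, all in 1 control, and vegfd had 0 counts. Of 91 values (7 genes in 13 samples), 10 were at 0 counts and 10 more at 1 to 3 counts. These low values made up 16 of 49 in controls and 4 of 42 in mutants.

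All 7 transcripts had a higher mean share outside rn7sl1 in mutant than in control ventricles, whereas as shares of all counts 4 of the 7 were higher and mt-nd3, mt-nd4l and mt-nd5 were lower. The ratios of the mean shares outside rn7sl1 ran from 1.43 (mt-nd4l) to 10.6 (mt-nd2), and the groups overlapped for every one of them. None passed either test after adjustment over all 6138 genes tested. The quasi-likelihood test of edgeR called 0 of the 7 at an adjusted p under 0.05, against 0.0978% of all tested genes, and 0 at an unadjusted p under 0.05, against 15.2% of all. The 15.2%, here and below, includes many genes counted in few samples. A fit of the 2468 genes counted in at least 7 samples had 112 at an unadjusted p under 0.05, and 0 of the 7. A two-sided exact permutation test of the shares called 0 of the 7 after adjustment, against 0% of all genes. The smallest adjusted p of any gene in that test was 0.511. Unadjusted, 3 of the 7 (mt-nd1, mt-nd2 and mt-nd4) had an exact permutation p under 0.05, against 4.12% of all. The 4.12%, here and below, includes genes counted in too few samples to reach such a p. For example, ndufa6 had counts in 1 sample and an exact permutation p of 0.462. No such percentage is given for genes counted as often as the 7, so the size of an excess cannot be read from it. With TMM factors the log2 fold change was above 0 for 7 of 7, against 44.0% of all tested genes, and the mean share was higher in mutants for 7 of 7, against 47.3%. In 0 of the 7 did the groups not overlap, against 0.130% of all genes. The median log2 fold change of the 7 was 1.49, against -0.30 over all tested genes. The 7 genes lie on 1 genome and were measured in the same libraries, so they are not 7 separate observations of the condition.

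**Figure D1:**
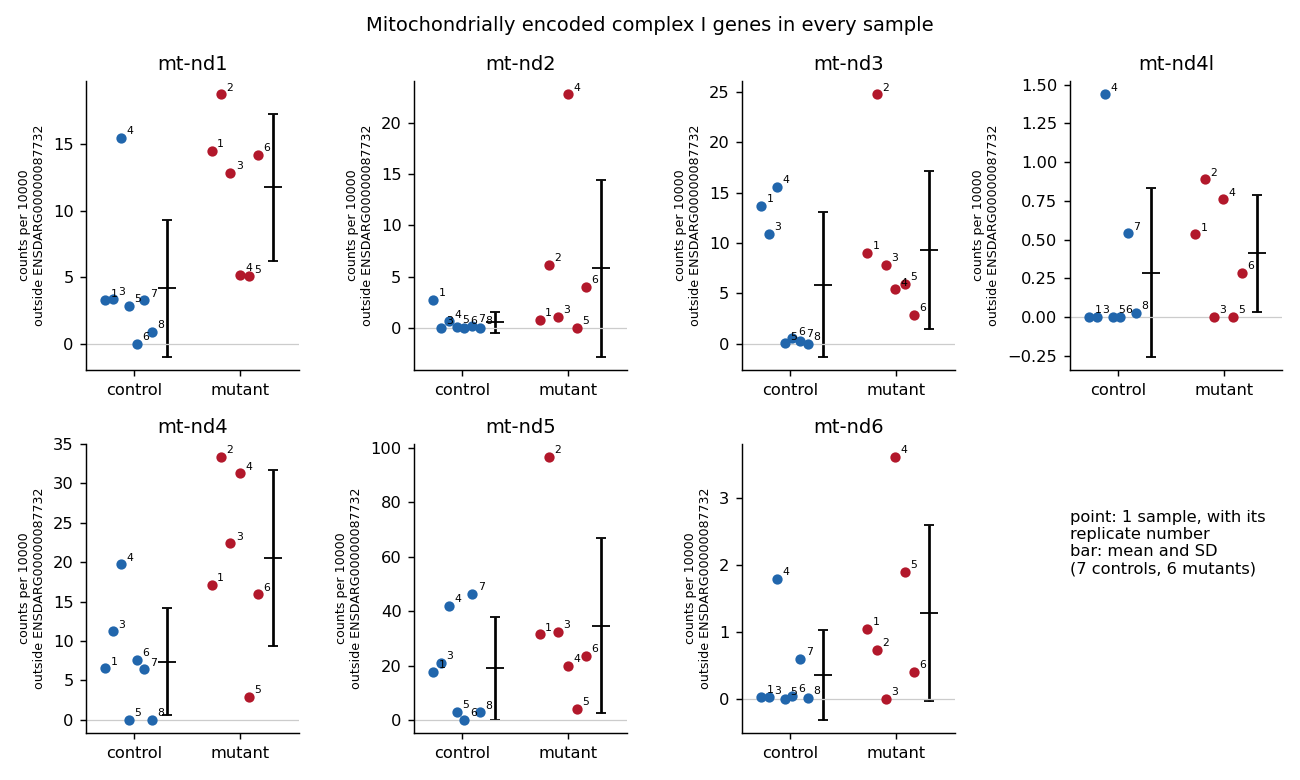
Share of each of the 7 genes in every sample, in counts per 10000 counts outside ENSDARG00000087732; each point is 1 ventricle with its replicate number, and bars give the mean and SD of 7 controls and 6 mutants. On this denominator, though not over all counts for mt-nd3, mt-nd4l and mt-nd5, mutant means lie above control means, and the groups overlap in every panel; mutant 2 is the highest mutant for mt-nd1, mt-nd3, mt-nd4l, mt-nd4 and mt-nd5, and control 4 the highest control for the same genes except mt-nd5, and for mt-nd6.

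The first 4 genes described encode the part of the membrane arm that lies against the arm where electrons enter. In mammals, ND1 forms part of the chamber in which ubiquinone is reduced. Its messenger, mt-nd1, had shares of 5.05 (lowest), 13.5 (median) and 18.8 (highest) in mutants. In controls the lowest, median and highest shares were 0, 3.25 and 15.5. All 6 mutants were above the control median and 6 of 7 controls were below the lowest mutant, while control 4 reached the range of the high mutants. The 95% Wilson interval, which covers counting error only, was 14.3 to 16.8 for control 4 and 4.49 to 5.69 for mutant 5, the lowest mutant. Control 6 had 0 mt-nd1 counts, although it had counts on mt-nd3, mt-nd4, mt-nd5 and mt-nd6. At its depth 3 counts correspond to a share of 0.117, and the 95% Wilson interval of its 0 counts reached 0.150. The mean share was 11.8 ± 5.51 (SD, n = 6) in mutants and 4.16 ± 5.17 (SD, n = 7) in controls, a difference of 7.60 (two-sided exact permutation p = 0.0274, 0.911 after adjustment). In edgeR the log2 fold change was 1.49 (SE 1.48, adjusted p = 0.946). Without control 4 the difference in mean share was 9.49 (exact permutation p = 0.00216, 0.998 after adjustment). Without mutant 2 it was 6.20 (exact permutation p = 0.0707, 0.927 after adjustment).

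ND3 is a small subunit beside ND1, with a loop that in mammals moves between the active and the resting form of the enzyme. Its messenger, mt-nd3, was counted in every sample. Mutant shares were 2.88, 6.89 and 24.7 (lowest, median and highest). Control shares were 0.00934, 0.545 and 15.6. The controls fell apart: controls 1, 3 and 4 had 13.7, 10.9 and 15.6, above 5 of the 6 mutants, and the other 4 controls were at or below 0.545. Controls 5 and 8 had only 3 and 1 counts on this gene. The mutants held mutant 2 at 24.7 and the other 5 at or below 9.04. The means were 9.31 ± 7.85 (SD, n = 6) in mutants and 5.88 ± 7.17 (SD, n = 7) in controls, a ratio of 1.58 (two-sided exact permutation p = 0.436). Without mutant 2 the difference in mean share was 0.35 in place of 3.44.

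ND6 sits against ND1 and ND3 and is the only protein encoded on its strand. Its messenger, mt-nd6, was scarce in these libraries: the highest count was 102, in mutant 5. Mutant shares were 0, 0.888 and 3.62 (lowest, median and highest). Control shares were 0, 0.024 and 1.80, with 5 of the 7 controls at 0 or 1 count. Mutants 4 and 5 were above every control, and the one mutant with 0 counts, mutant 3, was within the range of those 5 controls. The 95% Wilson intervals of mutant 5 (1.57 to 2.31) and control 4 (1.42 to 2.27) overlapped, so counting error alone covers the order of those 2 samples. The means were 1.28 ± 1.31 (SD, n = 6) and 0.356 ± 0.672 (SD, n = 7), a difference of 0.927 that the replicate spread covers (two-sided exact permutation p = 0.124, 0.911 after adjustment). Without mutant 4 the difference in mean share was 0.460 (exact permutation p = 0.307). Over the 13 samples left out in turn, the smallest exact permutation p of this difference was 0.0281. The smallest adjusted p over those runs was 0.915. Without control 4 the log2 fold change in edgeR was 3.10 in place of 1.72, and the adjusted p of mt-nd6 in edgeR stayed at or above 0.468 over all alternatives.

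ND4L is a short subunit between ND6 and ND2. Its messenger region, mt-nd4l, had the fewest counts of the 7, 170 in all, and a count in 7 of the 13 samples. In mutants 1 to 6 the counts were 24, 39, 0, 13, 0 and 17. In controls they were 56 in control 4, 18 in control 7, 3 in control 8 and 0 in the other 4. The sample with the most was thus a control, and no mutant exceeded it. The mean shares of 0.411 ± 0.379 (SD, n = 6) and 0.287 ± 0.546 (SD, n = 7) did not differ beyond the spread between ventricles (two-sided exact permutation p = 0.678), and a difference near the floor of 3 counts was not detectable at this depth. Without mutant 2 the difference in mean share was 0.0289 in place of 0.124. If mt-nd4l and mt-nd4 overlap on a shared messenger in zebrafish, a read from the overlap cannot be given to 1 of them with certainty. Coordinates were not analysed, so whether the split between them depends on this was not tested. There were 0 to 3.11 mt-nd4l counts per 100 mt-nd4 counts in mutants and 0 to 60 in controls, the highest in control 8 with 3 and 5 counts on these genes.

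ND2, ND4 and ND5 are the antiporter-like subunits, each with its own proton channel along the membrane arm. For mt-nd2, mutant shares were 0.0187, 2.55 and 22.8 (lowest, median and highest). Control shares were 0, 0.0989 and 2.76. Mutants 2, 4 and 6 were above every control, whereas mutant 5 had 1 count. Mutant 4 alone held 390 of the 1124 counts on mt-nd2, and among controls control 1 held 115. The 95% Wilson interval of the share was 20.6 to 25.2 in mutant 4 and 2.30 to 3.31 in control 1. The mean shares were 5.81 ± 8.63 (SD, n = 6) and 0.547 ± 1.004 (SD, n = 7), a difference of 5.26 (two-sided exact permutation p = 0.0262, 0.911 after adjustment). The log2 fold change of 2.90 in edgeR (SE 1.77, adjusted p = 0.512) was the largest of the 7. Without mutant 4 the difference in mean share was 1.87 (exact permutation p = 0.101). Without control 1 the log2 fold change was 4.54 (edgeR adjusted p = 0.221), and in DESeq2 mt-nd2 had an adjusted p of 0.179, the smallest among its alternatives.

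For mt-nd4, every sample had at least 1 count. Mutant shares were 2.91, 19.8 and 33.3 (lowest, median and highest). Control shares were 0.0198, 6.53 and 19.7. Mutants 2, 3 and 4 were above every control, mutants 1 and 6 were above every control but control 4, and mutant 5 was lower than all but 2 controls. Those 2 controls, 5 and 8, had 1 and 5 counts. The mean shares were 20.5 ± 11.2 (SD, n = 6) and 7.37 ± 6.79 (SD, n = 7), a difference of 13.1 (two-sided exact permutation p = 0.0286, 0.911 after adjustment). In edgeR the log2 fold change was 1.51 (SE 1.40, adjusted p = 0.916). Without mutant 5 the difference in mean share was 16.6 (exact permutation p = 0.00505, 0.940 after adjustment). Without mutant 2 it was 10.6 (exact permutation p = 0.0581, 0.927 after adjustment).

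The messenger of ND5, the subunit at the far tip of the membrane arm, had the most counts of the 7, 13792 in all, and mutant 2 supplied 4245 of them. Mutant shares of mt-nd5 were 4.16, 27.6 and 96.7 (lowest, median and highest). Control shares were 0.156, 17.8 and 46.3. Apart from mutant 2, mutants lay between 4.16 and 32.4 and controls 4 and 7 lay above all of these. The mean shares of 34.8 ± 32.1 (SD, n = 6) and 19.0 ± 18.9 (SD, n = 7) overlapped widely (two-sided exact permutation p = 0.328, 0.924 after adjustment), and without mutant 2 the difference in mean share was 3.32 in place of 15.7.

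The direction of the difference depended on the scaling for part of the genes. With library sizes left unscaled, and so with rn7sl1 in the total, the log2 fold changes of mt-nd3, mt-nd4l and mt-nd5 were -0.59, -0.54 and -0.36, and 4 of 7 were above 0. That scaling also moved the median of all genes, from -0.30 to -1.50. Measured from the median of all genes, the 7 stood 0.87 to 3.20 higher with the TMM factors of edgeR. Without scaling they stood 0.91 to 3.75 higher. With upper-quartile factors the median of all genes was 0.39 and the 7 stood 0.52 to 4.00 above it. Taking off that median removes most of what a change of scaling adds to every gene. These ranges therefore cannot show whether the direction depends on the scaling. Many of the genes behind the median were also seen in few libraries. Leaving out mutant 2 also brought the log2 fold changes of mt-nd3, mt-nd4l and mt-nd5 to just under 0 (-0.015, -0.096 and -0.070).

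**Figure D2:**
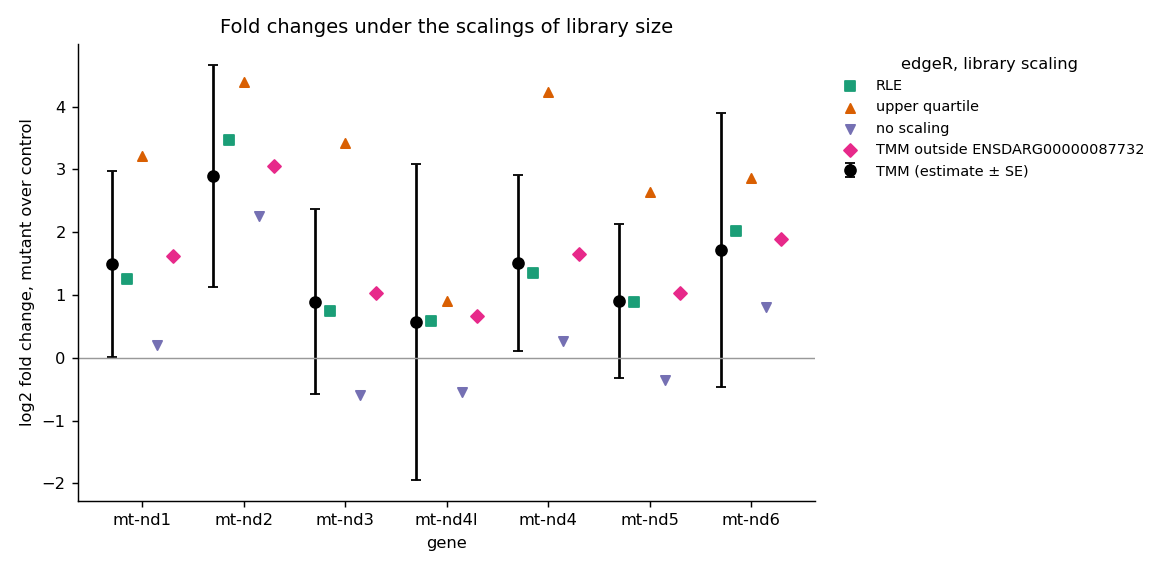
Log2 fold change (mutant over control) of each of the 7 genes in edgeR with TMM factors (black, bars are 1 SE) and with other scalings of library size. With TMM all 7 lie above 0, from 0.57 for mt-nd4l to 2.90 for mt-nd2, and without scaling mt-nd3, mt-nd4l and mt-nd5 lie below 0.

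Summed over the 7 genes, the share was 19.98, 75.6 and 181 (lowest, median and highest) in mutants. In controls it was 3.78, 44.1 and 96.7. On this denominator mutant 2 was above every control, 5 of 6 mutants were above the control median, and mutant 5 was below it. Over all counts, with rn7sl1 included, control 4 (3763 of 4291363 counts) had a higher share than mutant 2 (7960 of 10093509). The mean of the summed share was then not higher in mutants. Outside rn7sl1 the means were 83.8 ± 53.4 (SD, n = 6) and 37.6 ± 34.2 (SD, n = 7), a ratio of 2.23, or 1.71 without mutant 2 and 3.02 without control 4. Controls fell into a group of 4 between 44.1 and 96.7 (controls 1, 3, 4 and 7) and a group of 3 between 3.78 and 8.37 (controls 5, 6 and 8). In control 8 the share was still 11.8 when ENSDARG00000090170 was left out of the total as well.

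The other 6 protein genes of the same genome also had higher mean shares in mutants, of the counts outside rn7sl1. They encode subunits of complexes III and IV and of ATP synthase. Their summed share was 59.1, 180 and 457 in mutants (lowest, median and highest). In controls it was 5.63, 90.2 and 248. On that denominator the ratio of means was 2.25, close to the 2.23 of the complex I genes, and the difference between these ratios was not tested. All 6 had log2 fold changes above 0 with TMM factors, with a median of 1.27, and 3 of 6 without scaling. Of the 6, 0 was called by edgeR or by the exact permutation test, adjusted or at an unadjusted p under 0.05. The most counted, mt-co1, which encodes the catalytic subunit of cytochrome c oxidase, had mean shares of 66.7 ± 46.8 (SD, n = 6) and 27.5 ± 23.95 (SD, n = 7) and a log2 fold change of 1.33 (edgeR adjusted p = 0.844). The log2 fold changes of mt-co2, mt-co3, mt-cyb, mt-atp6 and mt-atp8 were 1.40, 1.03, 1.20, 1.93 and 1.07. The 7 complex I genes took 21.9% to 28.8% of the counts on the 13 mitochondrial protein genes in 5 mutants and 60.1% in mutant 4. In controls they took 25.4%, 31.2% and 40.6% (lowest, median and highest). Mutant 4 was thus high for the complex I genes but had the lowest share of any mutant for the other 6.

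**Figure D3:**
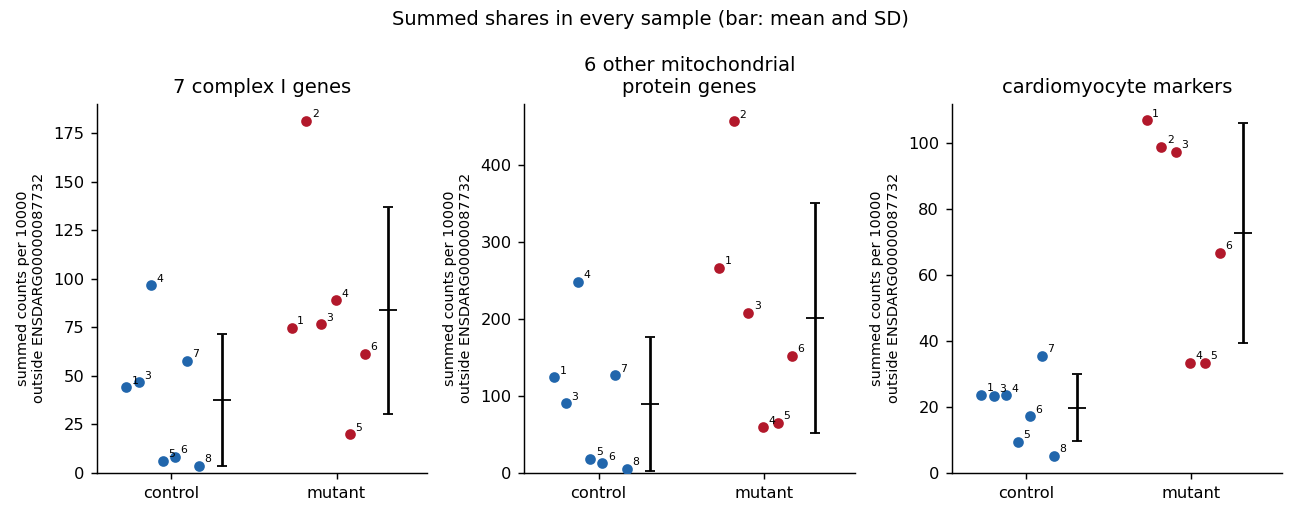
Summed share, in counts per 10000 counts outside ENSDARG00000087732, of the 7 complex I genes, the 6 other mitochondrial protein genes and the cardiomyocyte markers in every sample; points are ventricles with their replicate numbers, bars the mean and SD of 7 controls and 6 mutants. On this denominator, though not over all counts for the complex I genes, mutant means lie above control means. Ratios of means are 2.23, 2.25 and 3.70, and only for the cardiomyocyte markers do 4 of the 6 mutants lie above every control.

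Cardiomyocyte markers also had a higher summed share in mutants, as did the markers of some other cell types given below. Of 18 marker names 10 matched, to 12 genes, and all 12 had a count. Their summed share was 33.3, 82.1 and 107 in mutants (lowest, median and highest). In controls it was 5.13, 23.4 and 35.6. The means were 72.8 ± 33.5 (SD, n = 6) and 19.7 ± 10.2 (SD, n = 7), a ratio of 3.70, and 4 mutants were above the highest control. Of the 9 markers tested, 8 had log2 fold changes above 0 with TMM factors, with a median of 1.65, and 6 without scaling or with upper-quartile factors. None (0) was called by edgeR after adjustment, while 2 of 9 had an unadjusted p under 0.05, against 15.2% of all tested genes, and 4 of 9 had an exact permutation p under 0.05, against 4.12% of all. Those 4 were atp2a2a, actc1a, myh7 and actc1b, and they did not all go the same way. Every mutant was above every control for atp2a2a, the calcium pump of the sarcoplasmic reticulum, and for actc1a, a cardiac actin. Over all genes, the groups did not overlap, in either direction, for 0.130%. The two-sided exact permutation p was 0.000583 for both markers, the smallest that 6 against 7 samples allow, and 0.511 after adjustment. The other actin of the list, actc1b, was lower in mutants, with mean shares of 0.0759 ± 0.133 (SD, n = 6) and 1.62 ± 1.59 (SD, n = 7) and a log2 fold change of -4.42 (edgeR adjusted p = 0.296, exact permutation p = 0.0128). Fewer cells of a type and less RNA per cell cannot be told apart in these bulk libraries. Per 100 counts on the cardiomyocyte markers, a measure chosen after the data were seen, the 7 complex I genes had 59.7, 85.2 and 267 counts in mutants (lowest, median and highest). In controls they had 48.9, 162 and 411. The ratio of means was 0.763, and 0.590 to 0.843 with any 1 sample other than control 4 left out. Without control 4 it was 1.02, so its side of 1 depended on that sample. The part of cardiomyocyte content in the higher shares of the mutants was not tested.

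Other cell types were thinly measured. Erythrocyte markers (3 of 6 names matched, all with a count, none of them in every sample) had summed shares of 0 to 6.31 in mutants and 0 to 0.112 in controls. Endothelium markers (4 of 6 names matched) had 1.69 to 3.75 in mutants and 0.0187 to 3.01 in controls. Leukocyte markers (5 of 8 names matched, lyz at 0) had 0 to 3.25 and 0 to 2.44. Markers of fibroblasts and epicardium (6 of 8 names matched, tcf21 and wt1b at 0) had 2.63 to 8.31 and 1.49 to 8.27. Smooth muscle markers (3 of 3 names matched) had 0 to 8.97 and 0 to 18.6. The mean summed share was higher in mutants than in controls for erythrocyte (2.22 against 0.024), endothelium (2.60 against 0.951) and leukocyte markers (1.07 against 0.537). It was lower for fibroblast and epicardium (4.51 against 5.86) and smooth muscle markers (4.59 against 4.79). All 3 endothelium genes tested had log2 fold changes above 0 with TMM factors, and also without scaling. The part of these cell types in the result was not tested.

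The nuclear partners of the 7 were mostly below the reach of these libraries. The list of nuclear complex I subunits held 42 names, among them ndufa4, whose protein is now assigned to complex IV. Of the 42 names 40 matched a gene, 27 of the 40 had a count in any sample and 7 were abundant enough to test. Of those 7, 4 had log2 fold changes above 0 and 3 below with TMM factors, with a median of 0.68, and 3 were above 0 without scaling. None (0) was called by edgeR after adjustment, and 3 of 7 had an unadjusted p under 0.05, against 15.2% of all tested genes. Those 3, ndufa3, ndufa6 and ndufa7, had counts in only 3, 1 and 2 samples, and in the exact permutation test 0 of 7 had an unadjusted p under 0.05. The summed share of the nuclear subunits was 2.18, 6.66 and 12.4 in mutants (lowest, median and highest). In controls it was 0.0187, 7.28 and 17.6. The means were 6.96 ± 3.67 (SD, n = 6) and 8.08 ± 6.27 (SD, n = 7), so the nuclear subunits did not have the higher mean in mutants, though single genes rested on few libraries. The most counted was ndufv1, which binds NADH, with 837 counts in 8 samples and a log2 fold change of -0.96 (edgeR adjusted p = 0.9998). Next came ndufa4 (ENSDARG00000056108, 1 of 2 genes of that name), with 733 counts in 8 samples, among them all 6 mutants but only 2 controls, and a log2 fold change of 0.68 (edgeR adjusted p = 0.9998). The 508 counts of ndufa3 lay in 3 samples and the 467 of ndufv3 in 7 (edgeR adjusted p = 0.103 and 0.949).

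Factors that assemble complex I could not be compared: 16 of 17 names matched, 12 had a count and 1, ndufaf2, was tested, with 225 counts in 4 samples. Factors that copy, transcribe and process mitochondrial nucleic acids could be compared for 11 of the 29 matched genes. Of these, 6 had log2 fold changes above 0 and 5 below with TMM factors, with a median of 0.12, and 2 were above 0 without scaling. None (0) was called by edgeR after adjustment, and 3 of 11 had an unadjusted p under 0.05, against 15.2% of all tested genes, and 2 of 11 in the exact permutation test, against 4.12%. The 3 in edgeR were hsd17b10, higher in mutants, and polg2 and ptcd3, both lower in mutants. They had counts in only 4, 2 and 1 samples. The most counted was tefm, the mitochondrial transcription elongation factor, with 4159 counts and mean shares of 12.2 ± 8.35 (SD, n = 6) and 2.08 ± 3.49 (SD, n = 7). Its log2 fold change was 2.52 (edgeR adjusted p = 0.515, two-sided exact permutation p = 0.00874, 0.911 after adjustment). The mitochondrial RNA polymerase, polrmt, had 506 counts and a log2 fold change of -0.29, and the poly(A) polymerase mtpap had 410 counts and -1.62 (edgeR adjusted p = 0.9998 for both). The next by count, hsd17b10, a subunit of the RNase that cuts mitochondrial tRNAs out of their precursors, had 213 counts, in 4 mutants and 0 controls (edgeR adjusted p = 0.103).

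The split of the counts among the 7 genes differed widely between libraries. These percentages follow counts that are not corrected for gene length, so they compare 1 gene between samples and not the genes with each other. The share of mt-nd5 among the 7 was 20.8%, 40.5% and 53.3% in mutants (lowest, median and highest). In controls it was 1.86%, 45.2% and 80.3%. The share of mt-nd4 was 14.6% to 35.1% in mutants, and in controls it ran from 0.323% in control 5 to 91.2% in control 6. Control 6, with 196 of its 215 counts on mt-nd4, and control 5, with 46.5% on mt-nd1 and 1 count on mt-nd4, were among the 3 controls with the fewest counts on the 7 genes (215 to 405 counts). In those 3 the balance between genes rests on few counts, but counting error did not cover every gap between them. For mt-nd4 the Wilson interval of the share was 6.64 to 8.78 in control 6 and 0.00349 to 0.112 in control 5. For mt-nd1 it was 0 to 0.150 in control 6 and 2.42 to 3.35 in control 5. Control 7, with 1919 counts on the 7 genes, had 80.3% of them on mt-nd5. The source of the uneven split was not tested. Among mutants, mutant 4 had 25.6% of its counts on mt-nd2 and mutant 5 had 9.52% on mt-nd6. In mutant 5 there were 45.7 mt-nd6 counts per 100 mt-nd5 counts, against a mutant median of 2.50 and a control median of 0.336. The control values rest on few mt-nd6 counts. That median was 1 count over 298 in control 8, and the highest control value, 25, was 1 over 4 in control 6. Neighbouring genes were thus not counted in a fixed ratio from library to library.

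**Figure D4:**
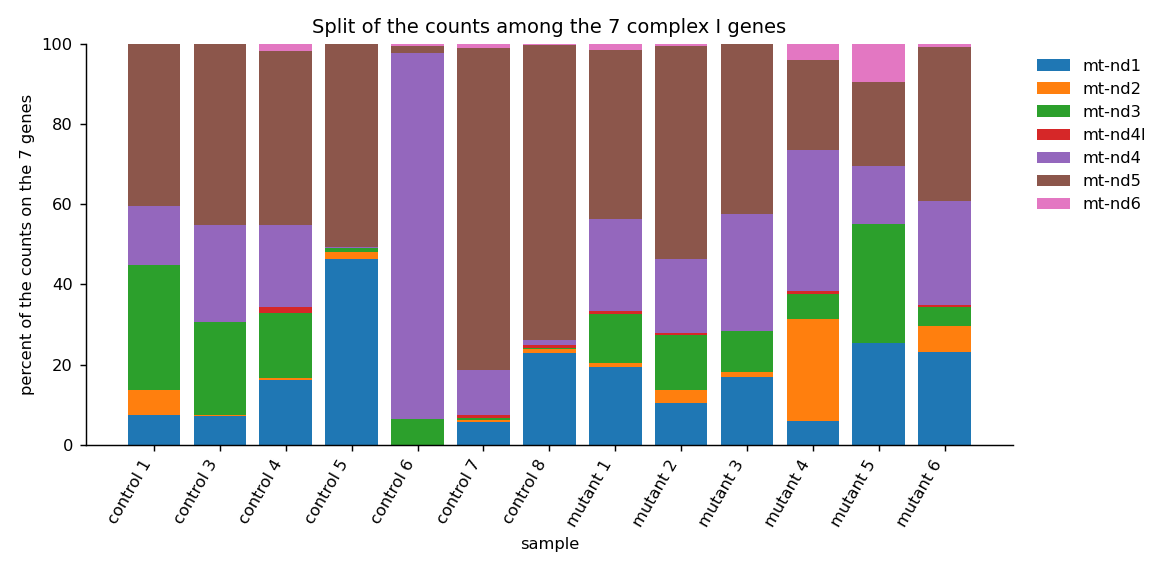
Percent of the counts on the 7 genes that fell on each of them, for 7 controls and 6 mutants; counts are not corrected for gene length. Most of control 6 is mt-nd4 (91.2%) and most of control 7 is mt-nd5 (80.3%), while in mutants mt-nd5 ranges from 20.8% to 53.3%.

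Over the 13 samples, the shares of the 7 genes rose and fell together to a moderate degree. Spearman's rho of the 21 pairs ranged from 0.259 to 0.786 with a median of 0.560, and was highest for mt-nd1 with mt-nd4 and lowest for mt-nd2 with mt-nd6. The 6 pairs with mt-nd6, the gene of the other strand, had rho of 0.259 to 0.631. Among 691 other genes counted in 10 or more of the samples, those whose share was among the most like the summed share of the 7 included mt-cyb (rho = 0.852), mt-co1 (0.819), f8 (0.812), which encodes a coagulation factor, and mt-co3 (0.808). The median rho of the 691 genes was 0.148 and the 95th percentile was 0.632. Of the other mitochondrial protein genes mt-co2 ranked at 6, mt-atp6 at 8 and mt-atp8 at 66. These correlations are descriptions over 13 libraries of unequal depth with 1 shared total per library.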

How the data were processed

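The authors extracted RNA from paraformaldehyde-fixed ventricular cryosections, depleted ribosomal RNA with a kit made for human, mouse and rat, and built directional libraries. Reads were trimmed, aligned with BWA 0.7.17 to GRCz11 and counted per Ensembl gene with featureCounts 1.5.0 (tools per the submitters' processing notes), on the correct strand at a mapping quality of at least 20 per the methods of the study. The deposited values are raw counts, to which the authors applied neither scaling nor their low-count filter. Reads that fit nuclear copies of mitochondrial genes equally well fall under that mapping quality.

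Groups and replicate numbers were read from the sample titles, beside which the labels give the genotype. Nothing says more than that each sample is a separate ventricle, so p-values measure the spread between these samples. No pair of samples was identical. Genes averaging 10 counts or more per sample were tested (6138 genes). The main test was the quasi-likelihood F test in edgeR 4.0.16 under R 4.3.3 (all 13 samples, TMM factors, condition as 1 factor, Benjamini-Hochberg adjustment over all tested genes). SEs are the size of the log2 fold change over the square root of F. Shares of the counts outside ENSDARG00000087732 were compared for every tested gene with an exact two-sided permutation test over all 1716 regroupings (Python 3.11.15, numpy 2.4.6, pandas 2.3.3), adjusted in the same way. The scripts were tested on simulated data. A 95% Wilson interval was computed for each share, as well as a floor of 3 counts. Both cover counting error only.

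Alternatives were other scalings, filters and denominators, the likelihood ratio test, the robust fit, DESeq2 1.42.0, voom with sample weights in limma 3.58.1, a replicate block, a log2 scale for shares (pseudocount 0.01), and the omission of each sample in turn. A denominator without every gene over 5% of the outside counts was added after seeing the data. The members, gene lists and tests were chosen with earlier results of these data known. The genes named are the 7, the genes that dominate the libraries, the other 6 mitochondrial protein genes, at most 4 of each further list with the highest mean count, and the 5 most like the 7 in Spearman's rho. Of these, 1 gene is not reported here. The markers atp2a2a, actc1a, myh7 and actc1b, the subunits ndufa6 and ndufa7 and the factors polg2 and ptcd3 were named after their values were seen. In the cell type lists no further gene is named except those at 0. Names were taken from the gene name table, which matched 29229 identifiers, and from the study's tables. Mitochondrial rRNAs and tRNAs, gene lengths, coordinates and sequences are not analysed here, so levels are not compared between genes.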

Additional observations from a re-analysis of the deposited data

Results flagged for a closer look

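In 7 of 16 groups of shares (each of the 7 genes, and their sum, in mutants and in controls), 1 sample lay far from the others, measured as its gap to the nearest sample divided by the range of the group. The cut-offs, 0.625 in mutants and 0.568 in controls, were those of Dixon's test, which assumes normal values. For such values chance gives about 1 in 20 groups, or 0.8 of 16. These shares cannot fall below 0, every flagged sample was the highest of its group, and the groups share samples. The 7 flags therefore cannot be read as an excess over that number. Control 4 was far above the other controls for mt-nd1 (15.5 against 3.38 per 10000, gap 0.782 of the range), mt-nd4l (1.44 against 0.541, gap 0.624) and mt-nd6 (1.80 against 0.601, gap 0.666). Mutant 2 was far above the other mutants for mt-nd3 (24.7 against 9.04, gap 0.718) and mt-nd5 (96.7 against 32.4, gap 0.695). For mt-nd2 it was mutant 4 (22.8 against 6.18, gap 0.729) and control 1 (2.76 against 0.668, gap 0.758).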

How the results depend on the processing

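The number of complex I genes called was 0 under all 46 alternatives, of which 26 left out 1 sample, in edgeR, DESeq2, voom and the exact permutation test (0 to 0 over the samples left out). The permutation runs add little to this. With a smallest possible exact permutation p of 0.000583 in the main run, a gene could be called only if many genes reached that p together. The smallest adjusted p of any of the 6138 genes in that run was 0.511. Of 319 alternatives for single genes, 310 kept their direction and side of the threshold. The other 9 changed direction: mt-nd3, mt-nd4l and mt-nd5 had log2 fold changes of -0.59, -0.54 and -0.36 with unscaled library sizes and of -0.015, -0.096 and -0.070 without mutant 2 (highest when leaving out 1 sample, 1.46, 0.887 and 1.39), and differences in mean share of -0.198, -0.0084 and -0.423 per 10000 with all counts as the denominator. The last follows from the larger part of rn7sl1 in mutants. The number of genes called among all tested was 6, and 87 with upper-quartile factors, 14 without scaling, 142 in DESeq2 and 1 to 9 under the other scalings, filters and tests. With all counts as the denominator the exact permutation p of mt-nd1, mt-nd2 and mt-nd4 was 0.790, 0.168 and 0.643. Without control 4, and under the filter of edgeR's filterByExpr, mt-nd4l fell below the filter and gave no value.

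With a replicate block, the log2 fold changes of mt-nd1 to mt-nd6 in gene order were 1.499, 3.12, 0.54, 2.48, 1.55, 0.65 and 3.16 (edgeR adjusted p = 1 for each), and 1 gene of all tested was called in place of 6. The block pairs animals that share only a number: the deviations of the 5 same-numbered pairs correlated at -0.0239 to 0.0833, and 2 of 5 mutants correlated best with their own number. Depth limits the low genes most: mt-nd4l and mt-nd6 were at 0 to 3 counts in 7 and 6 of the 13 samples.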
